A study of Mus musculus with 10 samples.

Results

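The genes described here take up long-chain fatty acids and activate them in the cell. The set held 10 of the 25078 genes in the deposited count table: the transporters Slc27a1, Slc27a2, Slc27a3 and Slc27a4, the receptor Cd36, the acyl-CoA synthetases Acsl1, Acsl3, Acsl4 and Acsl5, and Cpt1a. They were chosen by name as a functional group, and the group was chosen because Slc27a4 separated the genotypes in these same libraries. The genotype values of the 10 genes are therefore given as a description, without a test. RNA was sequenced from LSK cells, the lineage-negative, Sca-1+, c-Kit+ fraction of bone marrow that contains the blood stem cells and early progenitors. Each library came from 1 mouse, 5 of the CM and 5 of the CM/miR-126Δ/Δ genotype. CM mice were Cbfb 56M/+ with Mx1-Cre, so that the fusion gene Cbfb-MYH11 of inv(16) leukemia was switched on by poly(I:C). The second genotype added miR-126 flox/flox to those alleles, which the same Cre deleted. Both genotypes were on C57BL/6, were induced as young adults of either sex and were sampled 6 weeks after poly(I:C), before leukemia. Mx1-Cre acts in all interferon-responsive cells, so the deletion was not limited to LSK cells, and mice with an intact Cbfb gene were not analysed here.

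Long-chain fatty acids enter cells partly through CD36 and the SLC27 proteins, and are trapped when a coenzyme A is joined to them. SLC27 proteins and long-chain acyl-CoA synthetases (ACSL) both carry out that joining. The acyl-CoA is then built into lipids or passed by CPT1 onto carnitine, the rate-limiting entry to oxidation in mitochondria. Blood stem cells are known to draw on fatty acid oxidation for self-renewal, and CD36 is best known in macrophages, platelets, endothelium and fat cells.

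The targeted locus was checked first. Reads on Mir126a numbered 4, 5, 0, 2 and 3 in the 5 CM mice, and none was counted in CM/miR-126Δ/Δ (0 in 5 of 5). Libraries held 23649233 to 33202086 counts in CM and 24141663 to 26615091 in CM/miR-126Δ/Δ, and the detection limit of 3 counts was 0.0908 to 0.131 CPM (counts scaled to library size with TMM factors). Genes are called expressed where their mean RPKM (CPM per kilobase of exon) reached 1 in either genotype. All 10 LSK markers examined were expressed, with a summed level of 895 to 1066 RPKM in CM and 876 to 1040 in CM/miR-126Δ/Δ. Kit, the receptor used in the sort, had a mean of 166 RPKM in CM and 179 in CM/miR-126Δ/Δ. Granulocyte markers, with all 7 expressed, summed to 1035 to 1909 RPKM in CM and 871 to 2274 in CM/miR-126Δ/Δ. Among them Mpo had means of 848 and 858 RPKM, and S100a8 ran from 11 to 1823 counts per library. The part of these myeloid transcripts in the member levels was not tested. Endothelial markers summed to 76.5 to 96.1 RPKM and 74.7 to 92.4, mostly Pecam1, and monocyte and macrophage markers to 83.8 to 241 and 95.6 to 272. Platelet markers summed to 47.0 to 71.8 and 37.4 to 66.9, and adipocyte and stroma markers to 0.875 to 12.6 and 1.88 to 12.2, mostly Fabp4. The LSK markers Hlf, Mecom and Meis1 were higher in CM/miR-126Δ/Δ mice at an unadjusted p under 0.05, with log2 fold changes of 0.31 ± 0.10, 0.24 ± 0.11 and 0.19 ± 0.07 (SE), and their part in the member levels was not tested. The erythroid marker Hba-a1 was at 0 in every library, and Il7r was the lymphoid marker that was lower at an unadjusted p under 0.05 (edgeR's quasi-likelihood test, log2 fold change -0.95 ± 0.28, SE). In bulk RNA, fewer cells of a type and less RNA per cell cannot be told apart.

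Of the 10 genes, Slc27a4 was the 1 whose levels did not overlap between the genotypes. Slc27a4 (chr2:29802634-29817522, mm10, plus strand) encodes FATP4, a widely expressed acyl-CoA synthetase of very long-chain and long-chain fatty acids. Its level was 24.3, 17.8, 19.2, 22.0 and 22.1 CPM in CM mice 1 to 5 and 32.5, 31.9, 30.3, 30.6 and 33.2 CPM in CM/miR-126Δ/Δ mice 1 to 5. The lowest CM/miR-126Δ/Δ mouse stood above the highest CM mouse, and the CM mice were the more spread out. The means were 21.1 ± 2.59 CPM (SD, n = 5) and 31.7 ± 1.23 CPM (SD, n = 5), a log2 fold change of 0.59 ± 0.09 (SE) and a fold of 1.503. Between 469 and 877 reads were counted per library, for which counting alone gives a coefficient of variation (CV) of 3.81%. The observed CV was 12.3% in CM and 3.88% in CM/miR-126Δ/Δ.

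The fold of Slc27a4 lay almost on the study's cutoff. The study's 3 cutoffs were p no higher than 0.01, fold no lower than 1.5, and expressed. By them, 54 of the 18747 genes fitted here were called, which is 0.288%. Of these, 36, or 0.192% of the genes fitted, were the higher ones in CM/miR-126Δ/Δ. The paper reported a larger number of genes by these cutoffs, and the cause of the difference was not tested. With the mouse number as a block, 115 genes were called. Slc27a4 was the 1 member called, and nothing is read from that count since the set was picked on this contrast. Its fold was 1.45 without CM mouse 2, 1.48 without CM mouse 3 and 1.49 without CM/miR-126Δ/Δ mouse 5, and it then missed the cutoff. With any of the other 7 mice left out, it stayed at or above 1.5. Among the 11682 expressed genes, 161, or 1.38%, had genotypes that did not overlap.

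**Figure D1:**
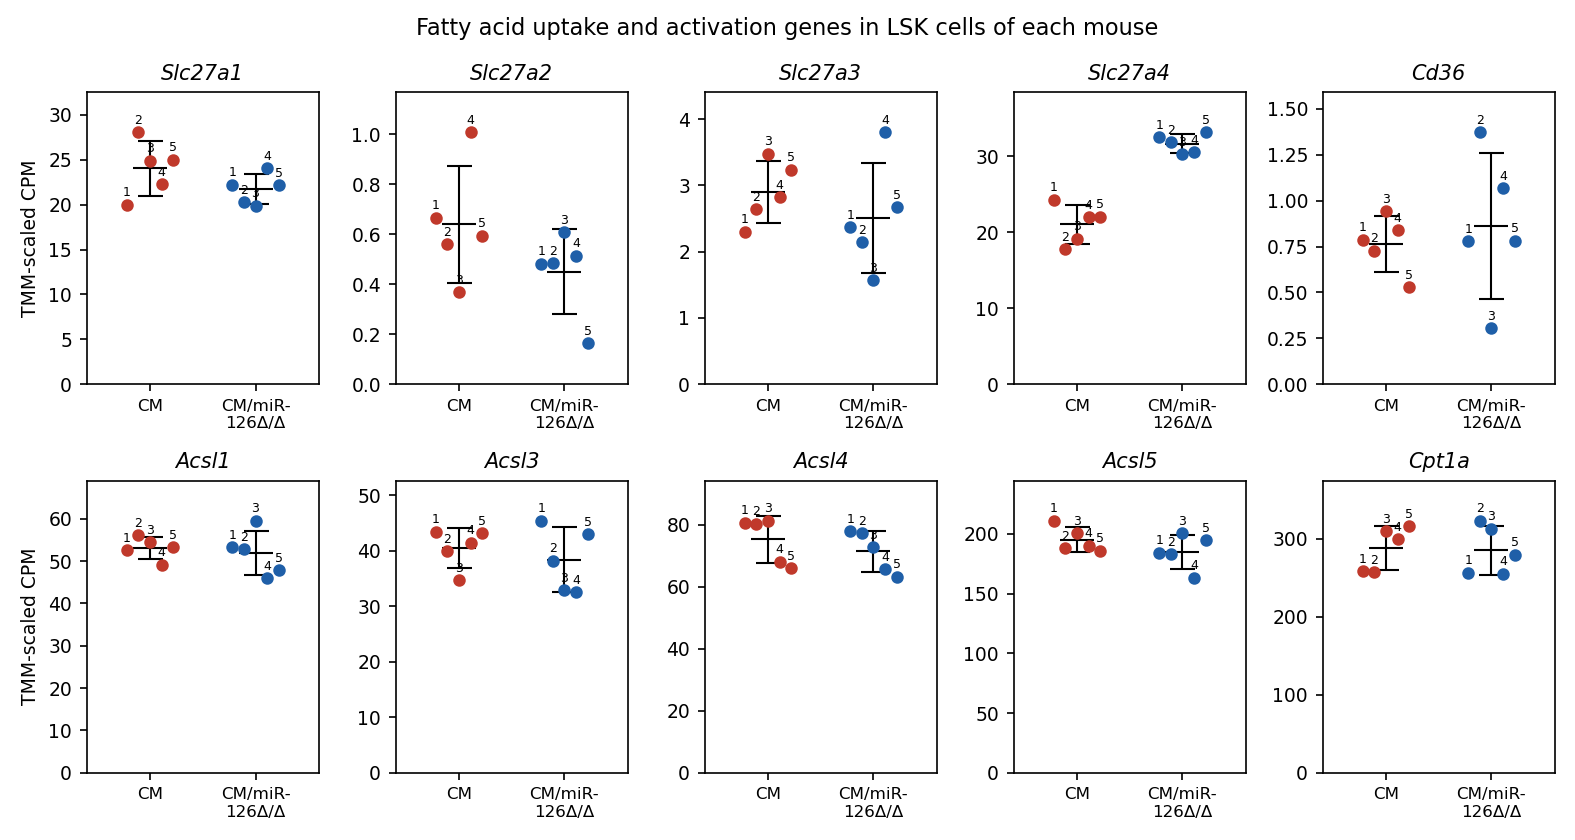
TMM-scaled CPM (vertical axes, starting at 0) of the 10 genes in each mouse of the CM and CM/miR-126Δ/Δ genotypes. Points are mice with their number, and the bars are the mean and SD (n = 5). Slc27a4 is the panel in which the CM/miR-126Δ/Δ mice, at 30.3 to 33.2 CPM, all sit above the CM mice, at 17.8 to 24.3 CPM.

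The deleted microRNA is shown in its 3p form, with its seed, bases 2 to 8, in capitals. Slc27a4 was the member with a match to bases 2 to 7 of this form, and no other form was searched. The sequence is from RefSeq, at chr2:26591402-26591423 of GRCm38.p6, plus strand.
mmu-miR-126a-3p: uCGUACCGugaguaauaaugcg
The longest 3′ untranslated region of each gene in the GENCODE M1 transcripts was searched, on the transcript strand, for CGGTACG, which pairs with all of the seed, and for GGTACG, which pairs with bases 2 to 7. The first contains the second. Slc27a4 held 1 copy of GGTACG, starting at base 1424 of a region of 1789 bases, followed by an A as in the site GGTACGA. That stretch is shown with the matching letters and the A in capitals.
Slc27a4 site: ccattttacttgGGTACGAtgtggagaatg
The other 9 genes held no GGTACG in regions of 118 to 2684 bases, including Acsl4 and Cpt1a, whose regions were longer than that of Slc27a4. No member held CGGTACG. Of the 9638 expressed genes with such a sequence, 3.58% held GGTACG, 0.872% held GGTACGA and 0.259% held CGGTACG. A match of letters describes the sequence and is not evidence that the microRNA acts there.

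The expressed genes were also described by these letters. Of the 345 with GGTACG, Slc27a4 among them, 190 had a log2 fold change above 0 and 155 below, with a median log2 fold change of 0.01. Of the 9293 without it, 3746 lay above 0 and 5547 below, with a median of -0.02. Genotypes did not overlap for 9 of the 345, with 6 higher and 3 lower, and for 115 of the 9293, with 51 higher and 64 lower. By the 3 cutoffs, 3 of the 345 were called higher and 0 lower, and 9 of the 9293 were called higher and 17 lower. The 84 genes with GGTACGA, the site shown for Slc27a4, had a median of 0.02, with 48 above 0 and 36 below. In 3 of the 84 the genotypes did not overlap with higher levels and in 1 with lower levels, and 2 of the 84 were called higher, Slc27a4 being counted in each. No test was made of this split.

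The region before the start of Slc27a4 is shown because this was the member whose level differed. It is the RefSeq sequence of GRCm38.p6, chr2:29802384-29802633, plus strand, with GGGCGG, the GC box, in capitals.
Slc27a4 promoter: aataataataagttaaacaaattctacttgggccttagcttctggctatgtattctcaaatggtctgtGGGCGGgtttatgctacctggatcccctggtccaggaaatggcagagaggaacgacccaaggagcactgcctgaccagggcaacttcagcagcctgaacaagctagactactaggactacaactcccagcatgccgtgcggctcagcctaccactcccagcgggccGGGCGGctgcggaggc
Windows from 250 bases before to 50 after each start were searched on both strands for the GC box GGGCGG, the CCAAT box by its letters CCAAT, the E-box CACGTG, the GATA motif as GATAAG, and the core binding factor letters TGTGGT and TGCGGT. No motif of this list contains another. In that window Slc27a4 held 3 copies of GGGCGG, the third of them after the start and not shown, and none of the others, and 58.7% of its bases were G or C, against a median of 52.7% over all 32851 promoters. GGGCGG occurs in 35.7% of all promoters, CCAAT in 37.4%, TGTGGT in 16.8%, GATAAG in 7.44%, CACGTG in 7.15% and TGCGGT in 6.45%. TGTGGT was found in the promoter of Slc27a2 and TGCGGT in that of Slc27a3, while none of the 10 genes had GATAAG.

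The other SLC27 transporters did not separate the genotypes. Slc27a1 (chr8:71568871-71587307, plus strand) encodes FATP1, known for insulin-responsive uptake in muscle and fat. It stood at 20.0, 28.1, 24.9, 22.3 and 24.99 CPM in CM mice 1 to 5 and at 22.2, 20.3, 19.9, 24.1 and 22.2 CPM in CM/miR-126Δ/Δ mice 1 to 5. The ranges overlapped, with CM mouse 2 the highest, and the log2 fold change was -0.15 ± 0.10 (SE), with a 95% interval of -0.36 to 0.06. Slc27a3 (chr3:90385233-90389938, minus strand), a less studied acyl-CoA synthetase of the family, was measured at 2.30, 2.64, 3.48, 2.82 and 3.24 CPM in CM and 2.37, 2.14, 1.57, 3.80 and 2.68 CPM in CM/miR-126Δ/Δ. Its lowest and highest mice were both CM/miR-126Δ/Δ, and the log2 fold change was -0.20 ± 0.22 (SE), with an interval of -0.68 to 0.28.

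Slc27a2 and Cd36 were low, at 4 to 34 counts per library. Slc27a2 (chr2:126553024-126588243, plus strand) encodes FATP2, a transporter and very long-chain acyl-CoA synthetase prominent in liver and kidney. It was counted 22, 17, 9, 30 and 18 times in CM mice 1 to 5 and 13, 12, 14, 13 and 4 times in CM/miR-126Δ/Δ mice 1 to 5. In CPM the CM mice ran from 0.368 to 1.01 and the CM/miR-126Δ/Δ mice from 0.165 to 0.609, with an overlap, and the interval of the log2 fold change was -1.29 to 0.27. Its within-genotype CV of 36.9% was the highest of the 10 genes, where counting alone gives 28.2%. Cd36 (chr5:17781690-17888959, minus strand), the scavenger receptor and fatty acid translocase, was counted 26, 22, 23, 25 and 16 times in CM and 21, 34, 7, 27 and 19 times in CM/miR-126Δ/Δ. The highest and the lowest mouse were both CM/miR-126Δ/Δ, and the log2 fold change was 0.18 ± 0.34 (SE), with an interval of -0.55 to 0.90. For Cd36 the within-genotype CV was 35.5%, where counting alone gives 22.6%. Both intervals were wide and spanned no change, so neither a rise nor a fall was resolved for either gene. Both genes had a mean RPKM below 1 in both genotypes, so 8 of the 10 genes could meet all 3 cutoffs.

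The acyl-CoA synthetases had high counts and showed small differences, though the level of Acsl3 is uncertain for a reason given below. Acsl1 (chr8:46471037-46536051, plus strand), the main form of fat, heart and liver, stood at 52.6, 56.1, 54.4, 49.1 and 53.4 CPM in CM mice 1 to 5. In CM/miR-126Δ/Δ mice 1 to 5 it stood at 53.3, 52.8, 59.5, 46.0 and 47.9 CPM. The 5 CM mice lay inside the range of the CM/miR-126Δ/Δ mice, and the log2 fold change of -0.03 ± 0.07 (SE) had an interval of -0.18 to 0.12.

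Acsl3 (chr1:78657825-78707743, plus strand), an enzyme of the endoplasmic reticulum and lipid droplets, was at 43.4, 39.9, 34.7, 41.5 and 43.2 CPM in CM and 45.4, 38.3, 33.0, 32.6 and 42.98 CPM in CM/miR-126Δ/Δ. Mouse 3 was low and mouse 1 high in both genotypes, and the log2 fold change was -0.08 ± 0.10 (SE), with an interval of -0.29 to 0.14. Utp14b (chr1:78657825-78667601) starts at the same base of the same strand and had 873 to 1340 reads per library. How reads in the overlap of these genes were treated is not given in the sources used here, so the level of Acsl3 is uncertain.

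Acsl4 (chrX:142317993-142390535, minus strand), which prefers arachidonic acid and is known for its part in ferroptosis, stood at 80.8, 80.4, 81.3, 68.1 and 66.0 CPM in CM mice 1 to 5. In CM/miR-126Δ/Δ mice 1 to 5 it stood at 78.0, 77.4, 72.9, 65.8 and 63.3 CPM. Mice 4 and 5 were the lowest of both genotypes, and the log2 fold change was -0.08 ± 0.08 (SE), with an interval of -0.25 to 0.09. Mice 4 and 5 of both genotypes also had at most 0.706 CPM of the X-linked Xist and 64.5 to 92.4 CPM of the Y-linked Ddx3y, where mice 1 to 3 had 2467 to 5951 CPM of Xist and at most 0.0435 CPM of Ddx3y. This division was seen after the values were known, and its part in the Acsl4 level was not tested. As each genotype had 3 mice of the first kind and 2 of the second, it fell equally on both.

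Acsl5 (chr19:55253369-55296628, plus strand), a synthetase of mitochondria and endoplasmic reticulum that is strong in the intestine, was at 211, 188, 200.4, 190.0 and 186 CPM in CM. In CM/miR-126Δ/Δ it was at 184, 183, 200.5, 163 and 195 CPM. CM mouse 1 was the highest and CM/miR-126Δ/Δ mouse 4 the lowest, the rest overlapped, and the log2 fold change was -0.08 ± 0.06 (SE), with an interval of -0.21 to 0.06. The 3 small RNA rows that the table places across the locus held 0 counts in every library.

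Cpt1a (chr19:3323301-3385733, plus strand), the carnitine palmitoyltransferase of the outer mitochondrial membrane, had the highest level of the set. It stood at 258, 258, 309.9, 299.8 and 317 CPM in CM mice 1 to 5 and at 257, 323, 313, 255 and 279.6 CPM in CM/miR-126Δ/Δ mice 1 to 5. Both genotypes ran over nearly the same range, and the log2 fold change was -0.01 ± 0.09 (SE), with an interval of -0.20 to 0.17, so that folds outside 0.869 to 1.13 lay beyond the interval. Between 6449 and 9587 reads stood behind each value, for which counting gives a CV of 1.14%, against 10.4% seen within genotypes.

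In all, 8 of the 10 log2 fold changes were below 0, with a median of -0.08. Of all 11682 expressed genes, 6719 were below 0, with a median of -0.02. Leaving out Slc27a4 left the median of the set at -0.08. Among the other 7 expressed genes of the set, fitted folds ran from 0.870 for Slc27a3 to 0.990 for Cpt1a.

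Per kilobase of exon, the order of the levels was steep. Cpt1a (67.1 ± 6.61 RPKM in CM and 66.4 ± 7.31 in CM/miR-126Δ/Δ, SD, n = 5) and Acsl5 (61.9 ± 3.31 and 58.8 ± 4.52) stood well above the rest. Cpt1a was above Acsl5 in 9 of 10 mice, but their ranges overlapped in both genotypes. Acsl4 (14.3 and 13.5 RPKM) came next and was below Acsl5 in 10 of 10 mice. Acsl1 (13.0 and 12.7 RPKM) was below Acsl4 in 8 of 10 mice, with ranges that overlapped in both genotypes. The difference between these neighbours was not tested. Acsl3 (10.3 and 9.73 RPKM) was below Acsl1 in 10 of 10 mice, with ranges that overlapped in CM/miR-126Δ/Δ alone. The place of Acsl3 in this order is uncertain because of its overlap with Utp14b.

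Below the synthetases came the transporters. Slc27a4 (5.20 ± 0.638 and 7.82 ± 0.303 RPKM) was below Acsl3 in 10 of 10 mice. Slc27a1 (6.29 ± 0.796 and 5.68 ± 0.442 RPKM) was above Slc27a4 in 4 of 5 CM mice and below it in 5 of 5 CM/miR-126Δ/Δ mice. Slc27a3 (1.26 and 1.09 RPKM) was below both in every mouse, and above Slc27a2 (0.278 and 0.196 RPKM) in every mouse. Slc27a2 was above Cd36 (0.195 and 0.219 RPKM) in 6 of 10 mice, and these 2 genes overlapped in both genotypes.

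**Figure D2:**
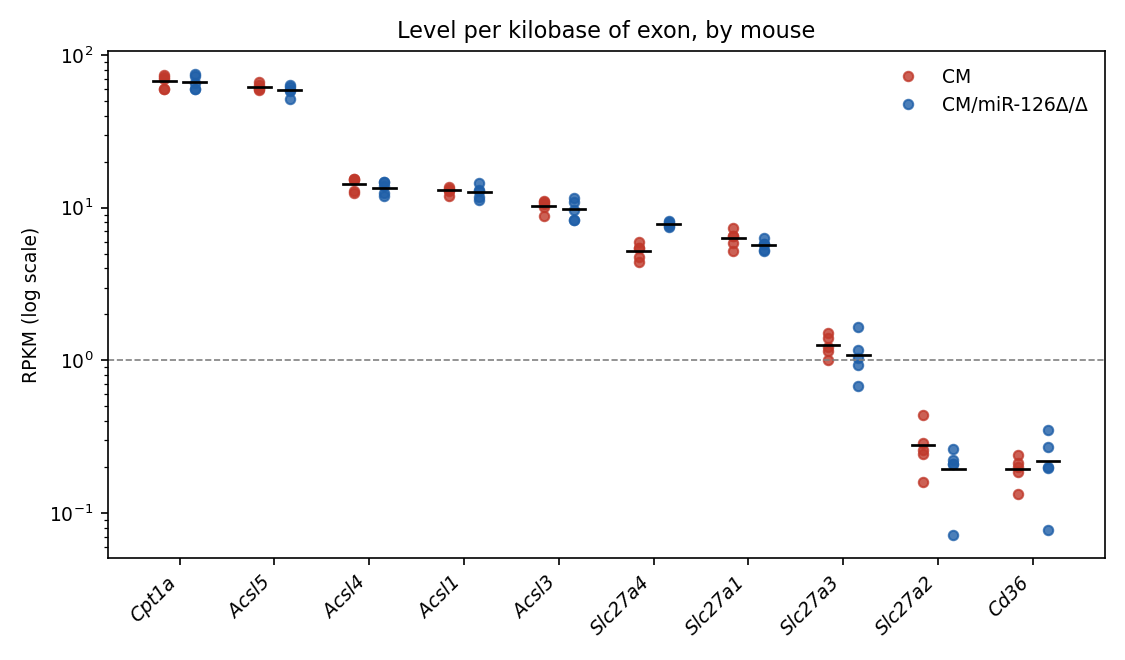
RPKM of the 10 genes (vertical log axis) in each mouse, ordered by the mean over all mice, with the genotype mean as a black line. The dashed line marks 1 RPKM. Cpt1a and Acsl5 lie near 60 RPKM and Slc27a2 and Cd36 below 1, and Slc27a4 is the gene that changes place with its neighbour Slc27a1 between the genotypes.

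The make-up of the transporter transcripts followed Slc27a4, the gene the set was picked for, and is given as a description. The ratio of Slc27a4 to Slc27a1 RPKM was 1.145, 0.597, 0.727, 0.933 and 0.832 in CM mice 1 to 5 and 1.38, 1.48, 1.44, 1.197 and 1.41 in CM/miR-126Δ/Δ mice 1 to 5. The ranges did not overlap, with CM mouse 1 and CM/miR-126Δ/Δ mouse 4 the nearest. Slc27a4 made up 40.0% ± 5.50 (SD, n = 5) of the summed RPKM of the 4 transporters in CM and 53.0% ± 2.89 of it in CM/miR-126Δ/Δ. Slc27a5 and Slc27a6 are outside the set, and with them included Slc27a4 made up 32.6% ± 4.67 and 43.1% ± 2.80, with 39.65% in the highest CM mouse and 39.69% in the lowest CM/miR-126Δ/Δ mouse. Slc27a6 then gave 18.2% ± 2.57 and 18.4% ± 2.96. The sum of the 4 itself was 12.5 to 13.6 RPKM in CM and 13.6 to 15.7 RPKM in CM/miR-126Δ/Δ, where the highest CM mouse stood just above the lowest CM/miR-126Δ/Δ mouse. The shares of the 4 synthetases were alike, with Acsl5 at 62.3% ± 1.12 of their sum in CM and 62.0% ± 1.76 in CM/miR-126Δ/Δ. Their sums were 99.4 ± 4.39 and 94.7 ± 6.40 RPKM, with Acsl3, whose level is uncertain, included.

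**Figure D3:**
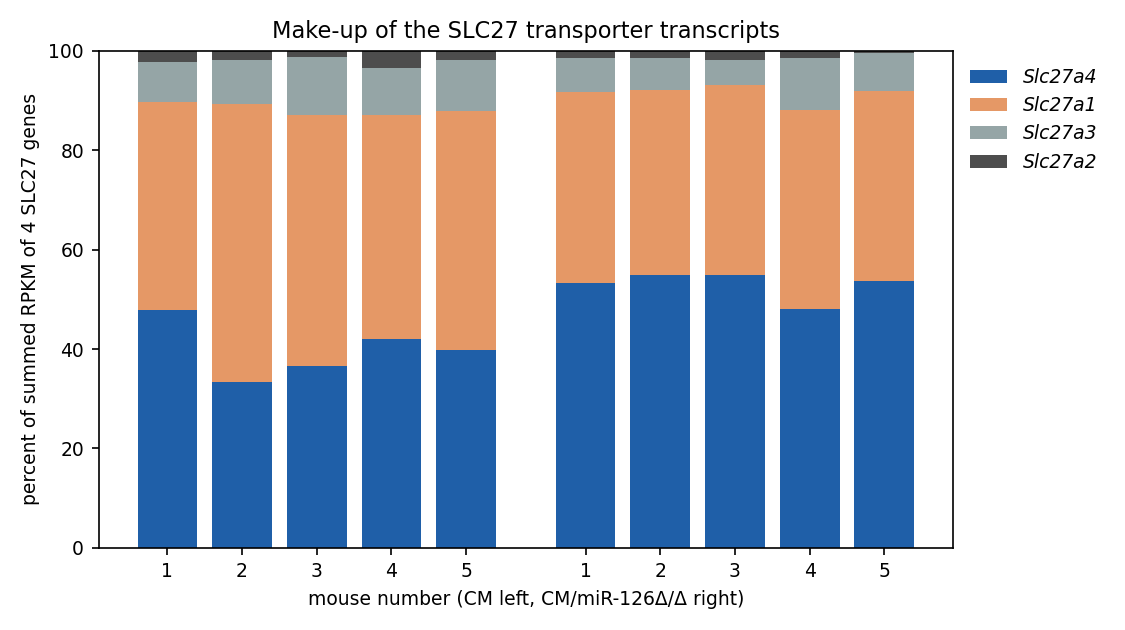
Percent of the summed RPKM of the 4 SLC27 genes (vertical axis) given by each gene in each mouse, Slc27a5 and Slc27a6 not included, with CM mice 1 to 5 on the left and CM/miR-126Δ/Δ mice 1 to 5 on the right. Slc27a4 gives a mean of 40.0% in CM and 53.0% in CM/miR-126Δ/Δ, and Slc27a1 48.2% and 38.4%.

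Slc27a4 lies on the chromosome of the deleted locus, 3.21 Mb from Mir126a. Slc27a2 lies on it too, at a distance of 99.96 Mb, and the other 8 genes are on other chromosomes. The lines had over 10 generations of backcrossing to C57BL/6. No genotypes along chromosome 2 were analysed here, and the deletion of miR-126 and any sequence still linked to the floxed allele cannot be told apart in this design. Among the 134 expressed genes within 5 Mb of Mir126a, 6, or 4.48%, had genotypes that did not overlap, and without Slc27a4 5 of 133, or 3.76%. The share was 1.67% on the rest of chromosome 2 and 1.34% over all other genes. The share with an unadjusted p under 0.05 was 9.02% in the window without Slc27a4, 9.14% on the rest of chromosome 2 and 7.9% over all other genes, so by this measure the window was like the rest of its chromosome. Mir126a itself was not counted in the window.

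The 6 genes were Ntng2, Trub2 and Slc27a4, with higher levels after the deletion, and Rabl6, Gpsm1 and Dnlz, with lower levels. Their log2 fold changes apart from Slc27a4 ran from -0.29 for Dnlz to 0.33 for Ntng2, and Slc27a4 was the 1 gene of the window, Mir126a aside, that met the 3 cutoffs. Egfl7, the gene whose intron holds Mir126a, had a log2 fold change of -0.10 ± 0.11 (SE). Around Slc27a4 itself, Trub2, a pseudouridine synthase gene 14963 bases away on the other strand, had a log2 fold change of 0.21 ± 0.07 (SE). Coq4, 4699 bases upstream, had 0.03 ± 0.11, and Urm1, 9867 bases downstream, -0.12 ± 0.09. The nearest gene on either side therefore overlapped between the genotypes, while Trub2 did not.

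**Figure D4:**
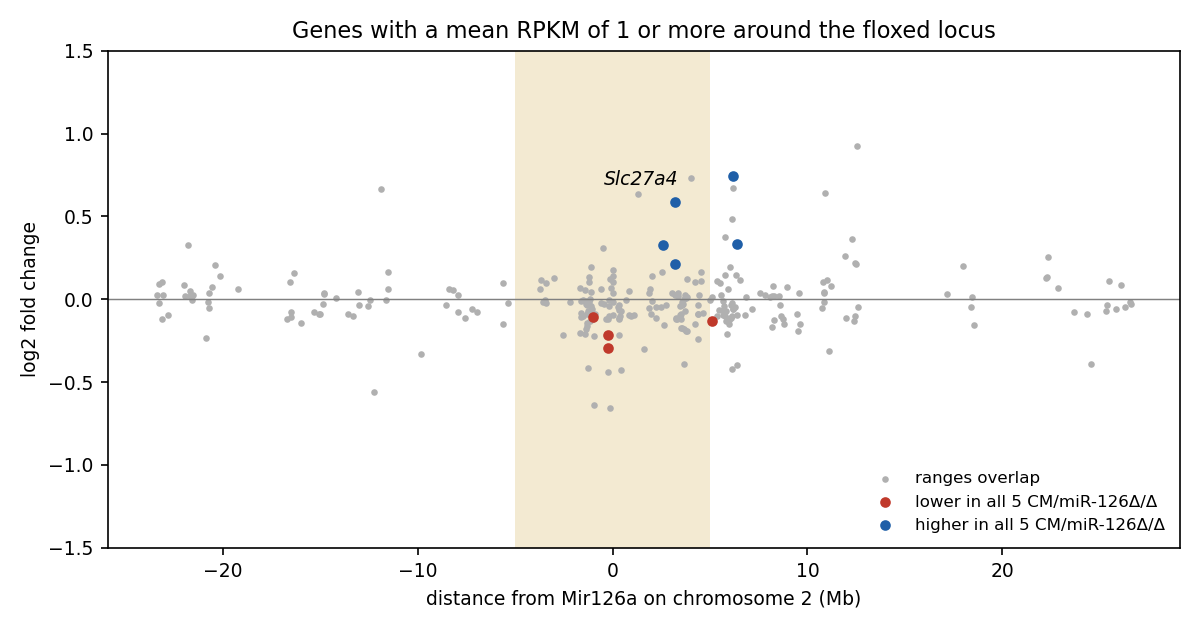
Log2 fold change of CM/miR-126Δ/Δ against CM (vertical axis) for expressed genes, by distance from Mir126a on chromosome 2 (horizontal axis, Mb). The shaded band is 5 Mb to either side, coloured points are genes whose genotypes did not overlap, and Mir126a itself and 2 other microRNA genes beyond a log2 fold change of 1.5 are not drawn. Slc27a4 stands at 3.21 Mb and 0.59.

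The genes whose CPM followed that of Slc27a4 most closely over the 10 mice, among 11681 expressed genes, included Invs (Pearson r = 0.957), a ciliary protein gene. They also included Akt2 (r = 0.945), a kinase of the insulin pathway, and Slc2a8 (r = 0.900), a glucose transporter. Spearman's rho was 0.976, 0.891 and 0.867 in the same order. These points share the genotype split of Slc27a4, so any gene that differs between the genotypes ranks high by this measure. Slc2a8 also lies on chromosome 2 (chr2:32972981-32982083), 6.38 Mb from Mir126a and so outside the window of 5 Mb. Its genotypes did not overlap either, with a log2 fold change of 0.34 ± 0.13 (SE). For Slc27a2, the most variable member, the 5 closest genes had r of 0.888 to 0.905, among them Cd24a and Ptprcap, with counts of Slc27a2 as low as 4.

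Other genes of fatty acid handling, 143 in 8 lists, put the set in its pathway. Of these, 137 were fitted and 106 were expressed. None met the 3 cutoffs in either direction, and 0 had an adjusted p under 0.05 by edgeR's quasi-likelihood test, which gave 2 such genes in all. At an unadjusted p under 0.05, 5 were higher and 1 was lower in CM/miR-126Δ/Δ, against 3.29% and 3.32% of all genes fitted. DESeq2 gave 6 higher at the same limit. Of the 106, 43 had a log2 fold change above 0 and 63 below, with a median of -0.02, the same as over all expressed genes. Lpin2 was the 1 gene of the 106 whose genotypes did not overlap, where 1.38% of all expressed genes did not, so nothing is read from this count.

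Among other activation enzymes, Acss2, which makes acetyl-CoA from acetate, was one of the 5, with a log2 fold change of 0.26 ± 0.08 (SE, adjusted p = 0.661), while its mitochondrial relative Acss1 had -0.05 ± 0.08. Of the remaining transporters, Slc27a6 was measurable at 2.93 RPKM in CM and 3.37 in CM/miR-126Δ/Δ, with a log2 fold change of 0.20 ± 0.17. Slc27a5 was at 0.0338 and 0.0287 RPKM. In the carnitine shuttle, Crot, which moves medium-chain groups out of peroxisomes, was the second of the 5 at 0.16 ± 0.06 (adjusted p = 0.734). The carrier Slc25a20 had -0.02 ± 0.07, the inner-membrane enzyme Cpt2 0.10 ± 0.09 and the acetyltransferase Crat 0.12 ± 0.09. The other forms of the Cpt1a enzyme were low, Cpt1b at 0.0823 RPKM and Cpt1c at 0.366 RPKM in CM.

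The oxidation enzymes were abundant, and none of the 19 mitochondrial or 16 peroxisomal genes had an unadjusted p under 0.05. Etfb, an electron carrier of the acyl-CoA dehydrogenases, stood at 108 ± 11.8 RPKM (SD, n = 5) in the CM mice and 109.5 ± 9.77 in the others. Hadha, the trifunctional protein subunit, stood at 62.1 ± 2.09 and 61.4 ± 4.04 RPKM. Among these lists the smallest p-values belonged to the dehydrogenases Acadm (-0.11 ± 0.05, adjusted p = 0.759) and Acads (-0.16 ± 0.08, adjusted p = 0.764). In peroxisomes, Hsd17b4, the multifunctional protein of the pathway, had a log2 fold change of -0.02 ± 0.06.

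In the lists of storage and synthesis, Lpin2, a phosphatidate phosphatase of triglyceride synthesis, stood at 18.3 ± 0.769 RPKM in CM and 20.7 ± 1.00 in CM/miR-126Δ/Δ. Its log2 fold change was 0.18 ± 0.05 (adjusted p = 0.612). Acacb, whose product malonyl-CoA inhibits CPT1, had 0.39 ± 0.15 (adjusted p = 0.746) at a level of 0.823 and 1.08 RPKM. Lpl, the lipase that frees fatty acids for uptake, had -0.75 ± 0.45 (adjusted p = 0.766), with a CPM SD of 10.2 about a mean of 16.3 in CM. Scd2, a desaturase, was at 85.7 and 84.5 RPKM. Among binding proteins and thioesterases, Acot7, which removes the coenzyme A that ACSL enzymes add, was the 1 lower gene at -0.15 ± 0.06 (adjusted p = 0.746), and Fabp5 had -0.21 ± 0.15.

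Of the regulators, Srebf2 had 0.05 ± 0.09 and Rxrb -0.08 ± 0.05. The last of the 5 higher genes was Ppara, the receptor that governs fatty acid oxidation in liver. It was barely detected, at a mean of 0.000877 RPKM in CM and 0.0139 in CM/miR-126Δ/Δ, so its fold is not given.

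**Figure D5:**
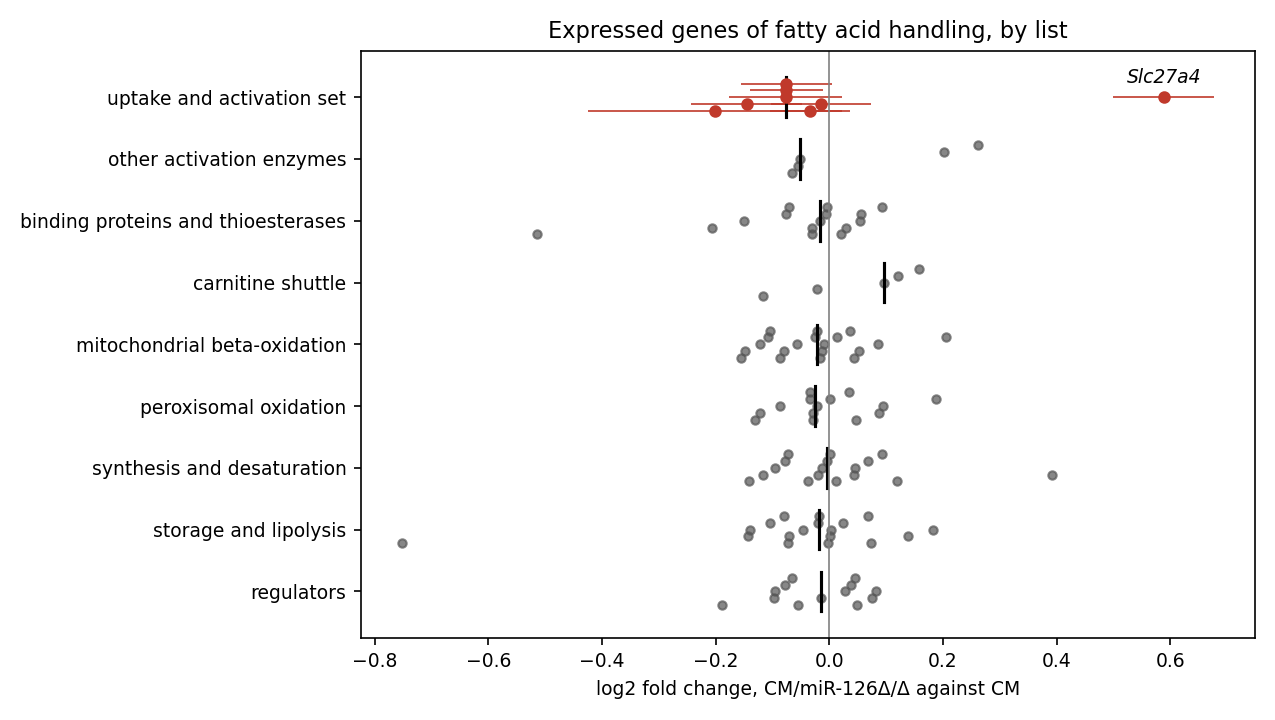
Log2 fold change of CM/miR-126Δ/Δ against CM (horizontal axis) for the 8 expressed members (red, with SE) and for the 106 genes of the other fatty acid lists (grey). Vertical offsets only keep points apart and black bars are medians. Slc27a4, at 0.59, stands apart from the other members, which lie between -0.20 and -0.01.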

How the data were processed

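RNA-seq was analysed for LSK cells of 10 mice, 5 per genotype, grouped by the labels. The authors trimmed reads, aligned them to mm10 with TopHat2 and counted RefSeq genes with HTSeq (0.6.1p1 in the submitters' notes). The deposited counts are whole reads per gene without normalization. The authors' second table, whose name refers to RPKM, holds each count divided by 1 constant per library and was not used. Use of strand in counting is not given in the sources used here.

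In R 4.3.3, 18747 genes with at least 1 count were fitted with edgeR 4.0.16 (TMM, quasi-likelihood F test, two-sided, genotype only, Benjamini-Hochberg adjustment), and edgeR 3 behaviour was kept. SE was the log2 fold change over the square root of F. RPKM used TMM-scaled totals and the listed exon lengths. Counting error alone is covered by the 3-count limits, as reads carry no molecular identifiers. The fit was tested on simulated data.

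Members and lists were chosen with earlier results of these data known. Named were all members and, per list, called genes, the 2 highest RPKM and the 2 smallest p-values; Slc27a5, Cpt1b, Cpt1c and Cpt2 were added after their values were seen, as were Ppara, Kit, Hlf, Mecom, Meis1, Il7r, Egfl7 and Utp14b. For Slc27a4 and the most variable member, the 5 genes of highest Pearson r were ranked, and some items are not reported here.

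The labels carry replicate numbers but state no pairing. Residuals of same-numbered mice correlated at 0.172 to 0.465 (mean 0.33, 11682 genes), and those of different numbers at -0.0845 on average. Residuals were taken around the genotype means, so the mean for different numbers largely follows from that for same numbers and is no control. Same-numbered mice also shared the Xist and Ddx3y division given with Acsl4, and its part in these correlations was not tested. The correlations therefore cannot decide whether the mice were paired. Libraries of different mice differed beyond sampling noise in all 45 pairs (lowest chi-square per degree of freedom 9.99). Nothing states whether mice shared a litter or a run. Alternatives were RLE factors, DESeq2 1.42.0, filterByExpr, a replicate block, RNA concentration as a covariate, Rn45s left out, no RPKM requirement and each mouse left out. Counting the pathway genes only at a mean RPKM of 1 or more was added after seeing the data.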

Additional observations from a re-analysis of the deposited data

Results flagged for a closer look

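One member had a mouse that stood far from its group. Slc27a2 was at 0.165 CPM (4 counts) in CM/miR-126Δ/Δ mouse 5, while the other 4 CM/miR-126Δ/Δ mice lay between 0.482 and 0.609 CPM. The gap was larger than Dixon's 95% limit for 5 samples. Of 22 groups examined in this way, 1.1 would be expected to pass by chance. Slc27a4 in the same mouse was at 33.2 CPM, the highest of the 10 mice.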

How the results depend on the processing

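Over 16 settings, 160 log2 fold changes of the members were recomputed and none moved by more than 1 SD between replicates. Slc27a4 was at a fold of 1.51 with RLE factors, DESeq2, the replicate block or Rn45s left out, 1.52 with filterByExpr and 1.54 with RNA concentration as a covariate. Leaving out 1 mouse at a time, its log2 fold change ran from 0.53 to 0.66 and the count of members called from 0 to 1. All genes called were 54 as reported, 115 with the replicate block, 22 with RNA concentration, 111 without the RPKM requirement and 33 to 128 with 1 mouse left out; CM mouse 3 gave the highest count when left out and CM/miR-126Δ/Δ mouse 5 the lowest. Pathway genes called were 0, and 1 without the RPKM requirement (Ppara) and 0 to 1 with 1 mouse left out (Lpl without CM mouse 2). Higher pathway genes at an unadjusted p under 0.05 were 5 as reported, 6 with the replicate block, RLE factors or DESeq2, 3 with RNA concentration and 5 to 7 with 1 mouse left out, and 4 when counted over expressed genes alone. Lower ones were 2 with the replicate block or with RNA concentration, and 0 to 5 with 1 mouse left out, the most without CM mouse 2. The block changed the call of no member and called no pathway gene. The causes were not tested. Genes with an adjusted p under 0.05 numbered 45 with DESeq2, 20 with the block and 0 with RNA concentration, against 2. The share of called genes that were higher was 66.7%, and 42.6% without CM/miR-126Δ/Δ mouse 4, 51.5% without CM mouse 2, 55.7% without CM/miR-126Δ/Δ mouse 3 and 83.5% without CM/miR-126Δ/Δ mouse 1. Slc27a2 and Cd36 had 4 to 34 counts, for which counting alone gives CVs of 28.2% and 22.6%. Within genotypes their CVs were 36.9% and 35.5%.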
